A study of Homo sapiens with 4 samples.

Results

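The 10 genes described here are chemokines and chemokine receptors, of 20348 genes in the table. They were listed by symbol, and all 10 were found in the table through their Ensembl identifiers. 7 encode ligands, namely CCL2, CCL3, CCL4, CCL5, CXCL8, CXCL10 and CXCL16, and 3 encode receptors, namely CCR1, CCR2 and CXCR4. Poly-A RNA was sequenced from K562 cells, a line from a chronic myeloid leukemia in blast crisis, and from THP-1 cells, a line from an acute monocytic leukemia. Each line was grown for 72 h with periplocin, a cardiac glycoside from the bark of Periploca sepium, at 100 nM, or with its vehicle DMSO, which the labels call a blank control. The 4 libraries are 1 for each condition, from 1 biological replicate by the study's own account. Both lines are transformed and adapted to culture, so each condition is 1 culture of 1 line and no spread between replicates exists. The study asked what periplocin does in myeloid leukemia cells, with NF-kB signaling as a stated interest.

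Chemokines are small secreted proteins that bind G protein-coupled receptors on leukocytes and steer their migration along a gradient. CC and CXC chemokines are named for the spacing of their first cysteines. Monocytes read CCL2 through CCR2, and CCL3 and CCL5 through CCR1, while CXCR4, the receptor for CXCL12, holds blood-forming and leukemic cells in the bone marrow. Many ligand genes are silent at rest and are switched on by NF-kB, AP-1 and interferon signals, whereas receptor genes are more often expressed steadily and regulated by desensitisation and internalisation.

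Library totals ran from 16381172 to 20622719 counts. Levels are given as counts and as CPM (counts scaled to a common library size) after TMM scaling over the 4 libraries, on which 1 count was worth 0.0506 to 0.0591 CPM. Values of up to 3 counts were treated as lying at the floor. The summed level of 8 markers of THP-1 was 1230 CPM with DMSO and 994 CPM with periplocin in that line, against 68.9 and 74.6 CPM in the K562 libraries. The summed level of 8 markers of K562 was 2070 CPM in K562 DMSO and 8580 CPM in K562 periplocin, against 4.0 and 2.36 CPM in THP-1. CSF1R, the receptor that defines the monocyte lineage, had 3086 and 2286 counts in THP-1 and 3 and 3 in K562. Lysozyme (LYZ), listed as a THP-1 marker, also had 752 and 1062 counts in K562.

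The ligand genes lie in clusters. On GRCh38 as annotated by GENCODE release 29, CCL2 spans chr17:34255218-34257203 on the plus strand, CCL5 chr17:35871491-35880793 on the minus strand, CCL3 chr17:36088256-36090169 on the minus strand and CCL4 chr17:36103590-36105621 on the plus strand. Recent copies of CCL3 and CCL4 follow them, CCL3L3 (the symbol used here, and CCL3L1 in GENCODE) at chr17:36194869-36196758 and CCL4L2 at chr17:36210924-36212878. CXCL16 stands apart on the same chromosome, at chr17:4733526-4739922 on the minus strand. CXCL8 at chr4:73740506-73743716 on the plus strand and CXCL10 at chr4:76021117-76023497 on the minus strand are on chromosome 4. CCR1 at chr3:46201709-46208396 on the minus strand and CCR2 at chr3:46353734-46360928 on the plus strand are neighbours on chromosome 3, and CXCR4 is at chr2:136114349-136118165 on the minus strand. The longest coding transcript has 3 exons in CCL2, CCL3 and CCL4, and 6 in CXCL16, which encodes 273 amino acids because this ligand carries a mucin-like stalk and a membrane anchor. That of CXCL8 encodes 99 amino acids and that of CXCR4 encodes 356. The table gives 1 value per gene, so no exon, intron or UTR can be singled out.

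Promoter sequence from RefSeq (build GRCh38.p14) was found for 6 of the 10 genes, CXCL8, CXCL10, CCL3, CCR1, CCR2 and CXCR4, and not for CCL2, CCL4, CCL5 and CXCL16. Windows of 250 bases before the first RefSeq start were searched on both strands for the TATA box TATAAA, for TGANTCA (AP-1), for GGNNNTTCC (the letters common to many NF-kB sites) and for GAAANNGAA (the core of interferon response elements). The windows below are shown because they set 3 inducible ligand genes beside the receptor gene with the highest level per kilobase of exon in THP-1 DMSO. CCL3L3 is added because its reads may be shared with CCL3. Each is written 5′ to 3′ in the direction of its gene, with the matched letters in capitals. They are CXCL8 at chr4:73740319-73740505 on the plus strand, CXCL10 at chr4:76023498-76023747 on the minus strand, CCL3 at chr17:36090144-36090393 on the minus strand, CCL3L3 at chr17:36196759-36197008 on the minus strand and CXCR4 at chr2:136118150-136118399 on the minus strand. The CXCL8 run is printed only up to the earlier start that GENCODE gives, 63 bases before the RefSeq start.
CXCL8: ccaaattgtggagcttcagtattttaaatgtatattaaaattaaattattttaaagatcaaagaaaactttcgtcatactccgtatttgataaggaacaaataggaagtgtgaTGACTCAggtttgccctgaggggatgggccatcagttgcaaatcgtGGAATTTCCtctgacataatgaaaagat
CXCL10: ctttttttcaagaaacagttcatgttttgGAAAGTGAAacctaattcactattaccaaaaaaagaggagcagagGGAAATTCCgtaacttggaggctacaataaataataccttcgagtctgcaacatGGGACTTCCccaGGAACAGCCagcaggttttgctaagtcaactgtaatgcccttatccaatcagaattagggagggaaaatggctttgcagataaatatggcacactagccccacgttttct
CCL3: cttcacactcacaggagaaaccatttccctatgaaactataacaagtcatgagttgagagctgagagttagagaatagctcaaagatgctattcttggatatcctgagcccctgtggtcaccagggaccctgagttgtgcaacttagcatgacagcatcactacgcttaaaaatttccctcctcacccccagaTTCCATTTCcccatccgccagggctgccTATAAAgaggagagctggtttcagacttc
CCL3L3: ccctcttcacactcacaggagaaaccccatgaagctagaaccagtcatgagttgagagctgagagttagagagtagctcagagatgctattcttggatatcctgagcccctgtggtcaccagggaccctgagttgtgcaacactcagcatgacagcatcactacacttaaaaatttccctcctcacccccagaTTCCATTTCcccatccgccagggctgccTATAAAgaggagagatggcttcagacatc
CXCR4: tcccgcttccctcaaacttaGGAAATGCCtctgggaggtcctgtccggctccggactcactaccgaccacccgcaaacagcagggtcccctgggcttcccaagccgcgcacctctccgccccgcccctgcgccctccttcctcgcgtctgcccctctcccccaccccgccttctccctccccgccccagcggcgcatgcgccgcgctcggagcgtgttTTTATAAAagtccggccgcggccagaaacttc

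Counted from the RefSeq start, CXCL8 had TGACTCA from position -137, GGAATTTCC from -91 and a TATA box from -31, the last of which lies beyond the printed run. CXCL10 had the NF-kB letters 3 times, from -176, -122 and -110, and the interferon core from -221. CCL3 had the interferon core from -57 and a TATA box from -29, and CCL3L3 had both at the same positions, with 233 of 250 promoter bases (93.2%) identical between the copies. CXCR4 had overlapping TATA matches from -32 and -30 and the NF-kB letters from -230. CCR2 had the AP-1 letters from -212 and the interferon core from -56, and CCR1 held none of the 4 motifs. All 250 bases of the CCR2 window lie inside the gene as GENCODE bounds it, so its matches are not upstream of the GENCODE start. The same holds for 83 bases of the CCR1 window, 26 of the CCL3 window and 16 of the CXCR4 window. Over 27305 promoters of the same length, TATAAA was in 11.1%, TGANTCA in 6.6%, GGNNNTTCC in 17.1% and GAAANNGAA in 7.06%. A match describes letters only, and no factor binding was measured.

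In THP-1 cells, 5 of the 7 ligand genes were past 2-fold higher in the periplocin library: CCL2, CCL3, CCL5, CXCL8 and CXCL16. The remaining ligands, CCL4 and CXCL10, went from 0 counts to 5 and 6. None of the 3 receptor genes was past 2-fold. A gene was counted as past 2-fold where the ratio of the libraries was at least 2 in either direction and its exact 95% interval left out 1, among genes with at least 10 counts in the pair. Over all 13680 genes so examined in THP-1, 9.06% were past 2-fold higher and 11.5% lower. Of the 10 genes, 8 had enough counts, and 5 of those 8 were higher and 0 lower, with a median log2 ratio of 2.11 against -0.03 over all genes examined. CCL2 and CCL3, at 8 and 1 counts with DMSO, reached 10 counts only through the periplocin library, where they were higher. The 10 genes were also listed with earlier results of these data known, so the contrast with all genes is only a description. The intervals cover counting error only. With 1 library per condition, a difference has no replicate check, and in bulk RNA a gene expressed by more cells and a gene expressed more strongly per cell cannot be told apart.

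**Figure D1:**
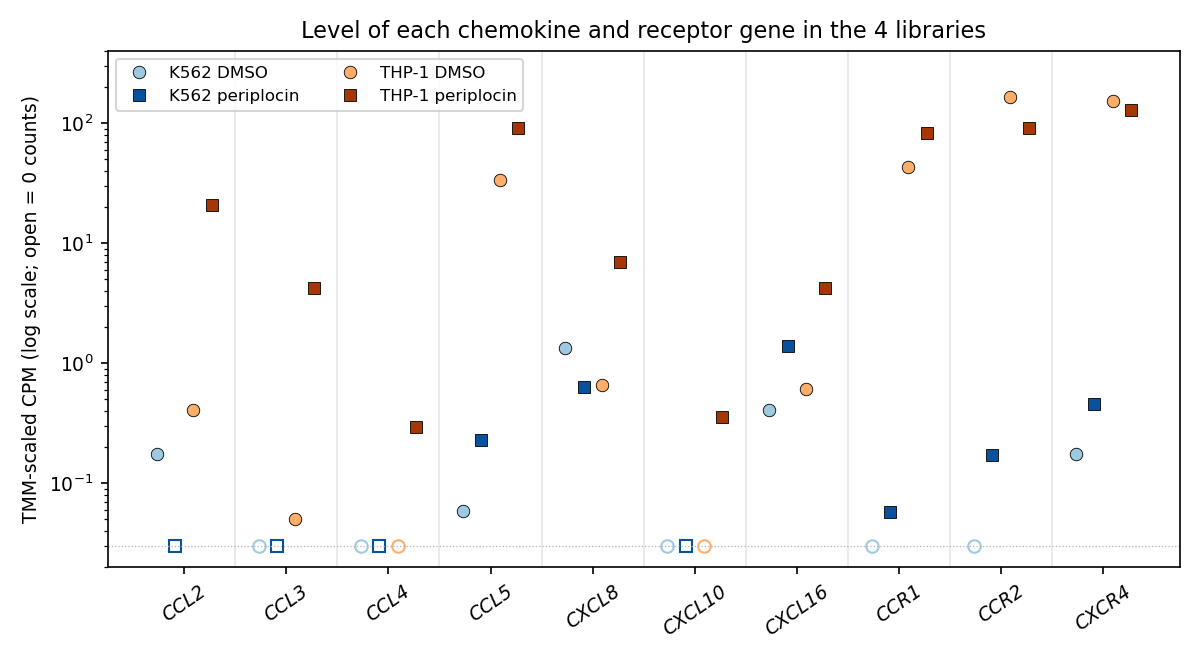
Level of each of the 10 genes in the 4 libraries as TMM-scaled CPM on a log axis, circles for DMSO, squares for periplocin, blue for K562 and orange to brown for THP-1, with open symbols on the dotted line for 0 counts. All 7 ligands had their highest level in THP-1 periplocin, while CCR2 and CXCR4 had theirs in THP-1 DMSO.

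CCL2, which draws monocytes through CCR2, had 8 counts with DMSO and 349 with periplocin in THP-1, with 3 and 0 in K562. Its level in THP-1 went from 0.405 to 20.6 CPM, a ratio of 51.0 (95% interval 25.6 to 119). The 3 other libraries were all near the floor, and only THP-1 periplocin was high.

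CCL5, a ligand of CCR1 and CCR3, was the ligand with the highest level in both THP-1 libraries. Its counts were 666 with DMSO and 1535 with periplocin in THP-1, and 1 and 4 in K562. The ratio in THP-1 was 2.69 (2.46 to 2.95), or 1.43 on the log2 scale with a standard error of 0.07 from the counts. CCL5 was the only one of the 7 ligands with more than 13 counts in THP-1 without the drug. An antisense gene that spans CCL5 and one that overlaps CCL3 were not in the table.

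CCL3, a ligand of CCR1, had 1 count with DMSO and 72 with periplocin in THP-1, and 0 in both K562 libraries. The ratio was 84.1, with an interval from 14.6 to 3370 that reflects the single count. The log2 ratio was 6.39, and 4.77 when a prior count of 2 was added to each library. Its copy CCL3L3, which encodes a nearly identical protein, had 16 and 113 counts in THP-1, a ratio of 8.25 (4.87 to 14.9). In the CCL3 transcript 9.88% of windows of 50 bases, and 0 of 629 windows of 150 bases (the read length), were also found in CCL3L3. How reads shared by the copies were assigned is not stated, so each value alone is uncertain. Summed, CCL3 and CCL3L3 had 17 and 185 counts, a ratio of 12.7 (7.73 to 22.3).

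CCL4, a CC chemokine related to CCL3, had 0 counts with DMSO and 5 with periplocin in THP-1. Set against a floor of 3 counts in the DMSO library, CCL4 had a ratio of 1.95 (exact interval from 1.07). Its copy CCL4L2 went from 2 to 18 counts, a ratio of 10.5 (2.52 to 93.4). Summed, the copies had 2 and 23 counts, a ratio of 13.4 (3.32 to 118). CCL4 shared 21.3% of its windows of 50 bases with CCL4L2 and 0 of 755 windows of 150 bases. Neither gene had a count in K562.

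CXCL8, the neutrophil attractant interleukin-8, had 13 counts with DMSO and 117 with periplocin in THP-1, a ratio of 10.5 (5.91 to 20.3). In K562 its counts were 23 in DMSO and 11 in periplocin, a ratio of 0.470 (0.207 to 1.00) that was not past 2-fold because the interval reached 1. It passed, at a log2 ratio of -1.10, when DESeq2 size factors were used or mitochondrial genes were left out. The log2 ratio in THP-1 exceeded that in K562 by 4.48 (standard error 0.68 from the 4 counts).

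CXCL10, an interferon-inducible ligand of CXCR3, had 0 counts with DMSO and 6 with periplocin in THP-1. Against the floor of 3 counts it had a ratio of 2.34 (exact interval from 1.38). It had 0 counts in both K562 libraries. CXCL10 overlaps ART3 on the opposite strand, which had between 1 and 3 counts in every library.

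CXCL16, made as a membrane protein and shed to attract cells with CXCR6, was the only one of the 10 genes past 2-fold in both lines, though the call in K562 rested on few counts and was lost with a filter of 1 CPM, a 4-fold threshold or a wider interval. Its counts were 12 with DMSO and 71 with periplocin in THP-1, a ratio of 6.91 (3.72 to 14.0), and 7 in K562 DMSO and 24 in K562 periplocin, a ratio of 3.37 (1.41 to 9.25). The log2 ratios differed between the lines by 1.04, with a standard error of 0.77 from the counts. MED11, which overlaps CXCL16 by 85 bases on the opposite strand, had 69 and 47 counts in THP-1 and 36 and 46 in K562.

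The receptor CCR1 had 844 counts with DMSO and 1388 with periplocin in THP-1, a ratio of 1.92 (1.76 to 2.09), just under 2-fold. CCR2, the receptor of CCL2, had 3232 and 1544 counts, and the periplocin library stood at 0.558 of the DMSO library (0.525 to 0.593). CXCR4 had 3029 and 2177 counts, a ratio of 0.839 (0.794 to 0.887). All 3 intervals left out 1, with the ratio above 1 for CCR1 and below 1 for CCR2 and CXCR4, but none reached 2-fold. CCR1 lies within CCR3 on the opposite strand, where CCR3 had 4 and 1 counts in THP-1.

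**Figure D2:**
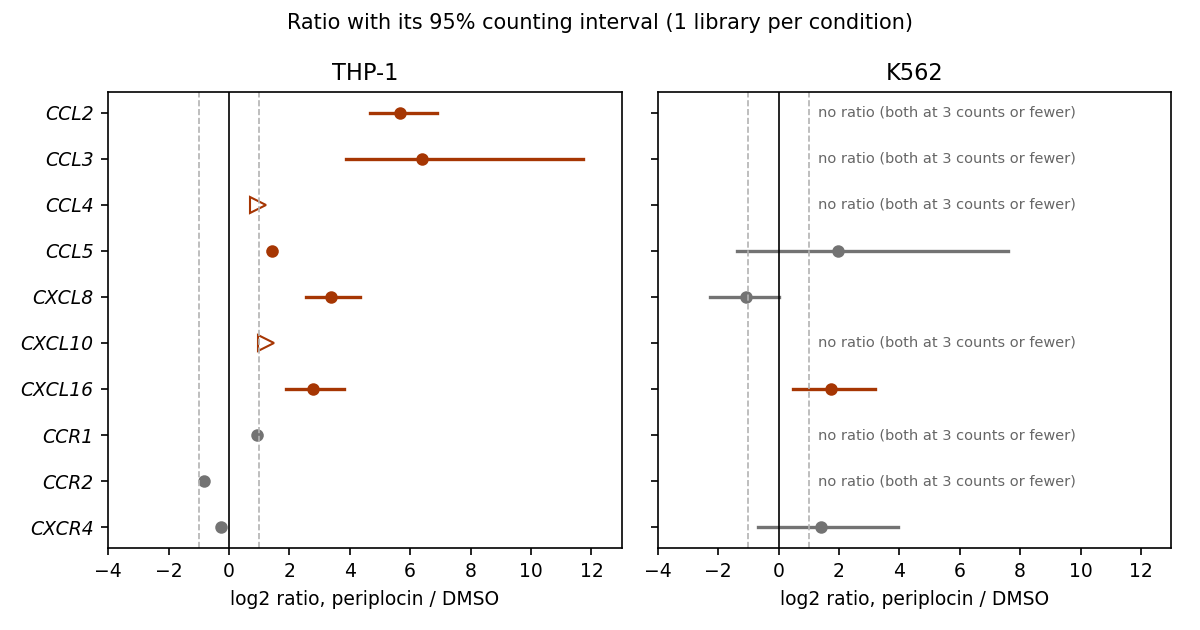
Log2 ratio of the periplocin to the DMSO library for each of the 10 genes in THP-1 (left) and K562 (right), with 95% counting intervals, red-brown where past 2-fold and grey where not. Open triangles mark ratios set against the floor of 3 counts. In THP-1 the 5 ligands past 2-fold lie between 1.43 and 6.39 and the 3 receptors between -0.84 and 0.94.

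Summed over the 7 ligand genes, THP-1 went from 700 to 2155 counts, a ratio of 3.60 (3.30 to 3.92). Summed over the 3 receptor genes, it went from 7105 to 5109 counts, a ratio of 0.840 (0.810 to 0.871). Over all 46 ligand genes in the table the ratio was 2.24 (2.11 to 2.38), and over all 18 receptor genes it was 1.00 (0.972 to 1.03). The makeup of the receptor counts nevertheless differed between the libraries, in shares that are not corrected for gene length. CCR2 was 36.2% of all receptor counts in THP-1 DMSO (exact binomial interval 35.2 to 37.2) and 20.2% (19.3 to 21.1) in THP-1 periplocin, while CX3CR1 was 12.7% (12.0 to 13.4) and 25.5% (24.5 to 26.5) and CCR1 was 9.46% (8.86 to 10.1) and 18.1% (17.3 to 19.0). CXCR4 was 34.0% (33.0 to 34.9) and 28.4% (27.4 to 29.5). Among ligand counts, CCL5 was 41.3% (38.9 to 43.8) and 49.7% (47.9 to 51.5), and CCL2 reached 11.3% (10.2 to 12.5) in the periplocin library.

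Levels of different genes can be compared only per length, here as CPM per kilobase of annotated exon. In THP-1 DMSO the order was CXCR4 at 68.9, CCR2 at 43.8, CCL5 at 22.3 and CCR1 at 15.6, with CXCL8 at 0.289, CXCL16 at 0.217, CCL2 at 0.204 and CCL3 at 0.0339 far below, and CCL4 and CXCL10 at 0. In THP-1 periplocin CCL5 at 60.0 stood beside CXCR4 at 57.9, followed by CCR1 at 30.0, CCR2 at 24.4 and CCL2 at 10.4, then CXCL8 at 3.04, CCL3 at 2.85, CXCL16 at 1.5, CXCL10 at 0.302 and CCL4 at 0.145. CXCL8, CXCL16 and CCL2 rested on 8 to 13 counts each in THP-1 DMSO, and their order there is not resolved at this depth.

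**Figure D3:**
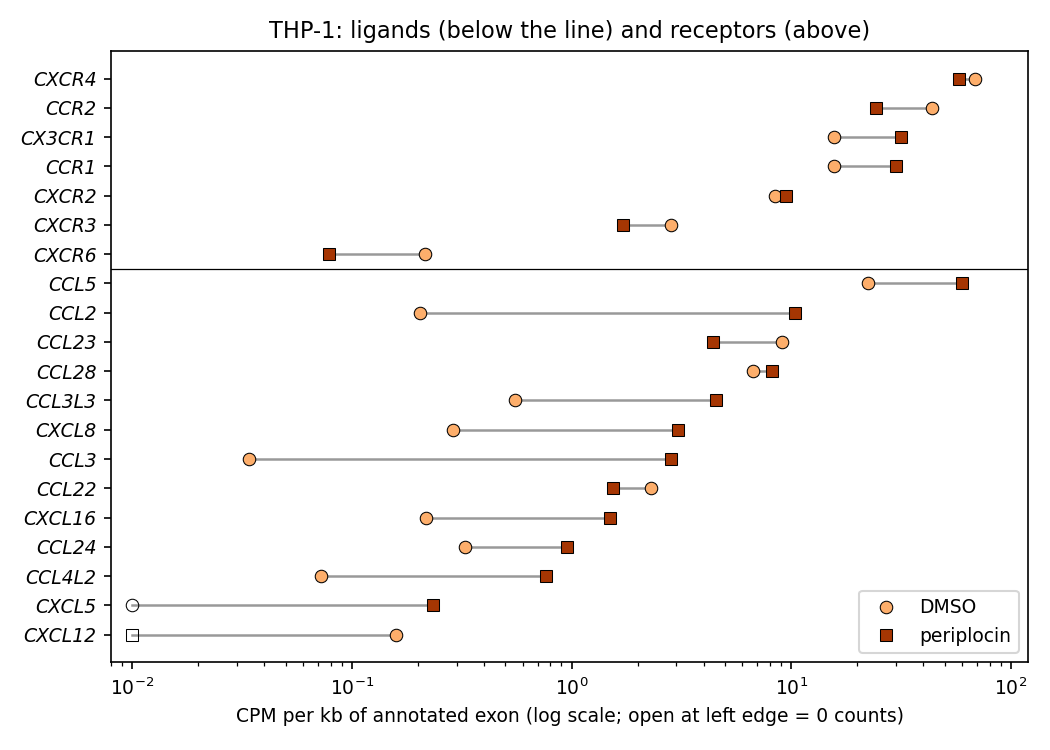
CPM per kilobase of annotated exon on a log axis in THP-1 DMSO (circles) and THP-1 periplocin (squares) for the receptors (above the line) and ligands (below) with at least 10 counts in the pair, with open symbols at the left edge for 0 counts. CCL2 moved from 0.204 to 10.4, across the levels of CCL23 and CCL28, while CXCR4 and CCR2 lay above CCL2 in both libraries.

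In K562 the group was close to silent. Over all 13076 genes examined in K562, 9.88% were past 2-fold higher and 12.0% lower. Of the 10 genes only CXCL8, CXCL16 and CXCR4 had 10 or more counts in the pair, and 1 of these 3, CXCL16, was higher and 0 lower. CXCL16, at 7 counts with DMSO, reached 10 counts only through the periplocin library, where it was higher. CXCR4 had 3 counts in DMSO and 8 in periplocin, a ratio of 2.62 (0.628 to 15.3). CCL5 had 1 and 4 counts, a ratio of 3.93 (0.389 to 193). The other 6 genes had 3 or fewer counts in both libraries, for which no ratio is given. At this depth the floor of 3 counts, a chosen cut, corresponds to 0.176 CPM in K562 DMSO and 0.173 CPM in K562 periplocin. Lower levels rest on very few counts and are not resolved. The summed K562 markers were 2070 and 8580 CPM in the same pair, and their part in these results was not tested.

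Without drug, all 3 receptors and CCL5 were past 2-fold higher in THP-1 than in K562. Over 14137 genes examined between the DMSO libraries, 24.4% were past 2-fold higher in THP-1 and 21.7% lower. Of the 7 members examined, 4 were higher in THP-1 and 0 lower. These, CCR1, CCR2, CXCR4 and CCL5, reached 10 counts only through THP-1 DMSO, where they were higher. The contrast with all genes is therefore only a description. With 0 counts in K562 DMSO, ratios against the floor were 243 for CCR1 (exact interval from 197) and 930 for CCR2 (from 756). CXCR4 had 3029 counts against 3, a ratio of 872 (298 to 4230), and CCL5 had 666 against 1, a ratio of 575 (103 to 22800). Both ratios rest on 3 counts or fewer in K562, and with a prior count of 2 the log2 ratio of CXCR4 was 9.07 in place of 9.77 and that of CCL5 was 7.66 in place of 9.17. CCL2 had a ratio of 2.30 (0.553 to 13.5), CXCL16 of 1.48 (0.537 to 4.44) and CXCL8 of 0.488 (0.227 to 1.00), and none of these was past the rule.

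The other 99 genes of the chemokine system were grouped in 7 lists. In THP-1, 51 had enough counts, and 10 were past 2-fold higher and 5 lower, with a median log2 ratio of 0.24. In K562, 39 had enough counts, and 4 were higher and 8 lower, with a median of -0.29. Over all genes examined, the shares higher and lower were 9.06% and 11.5% in THP-1 and 9.88% and 12.0% in K562, against which the counts in single lists below, of a few genes each, can only be read as descriptions. A further 42 genes in THP-1 and 53 in K562 were at 3 counts or fewer in both libraries.

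**Figure D4:**
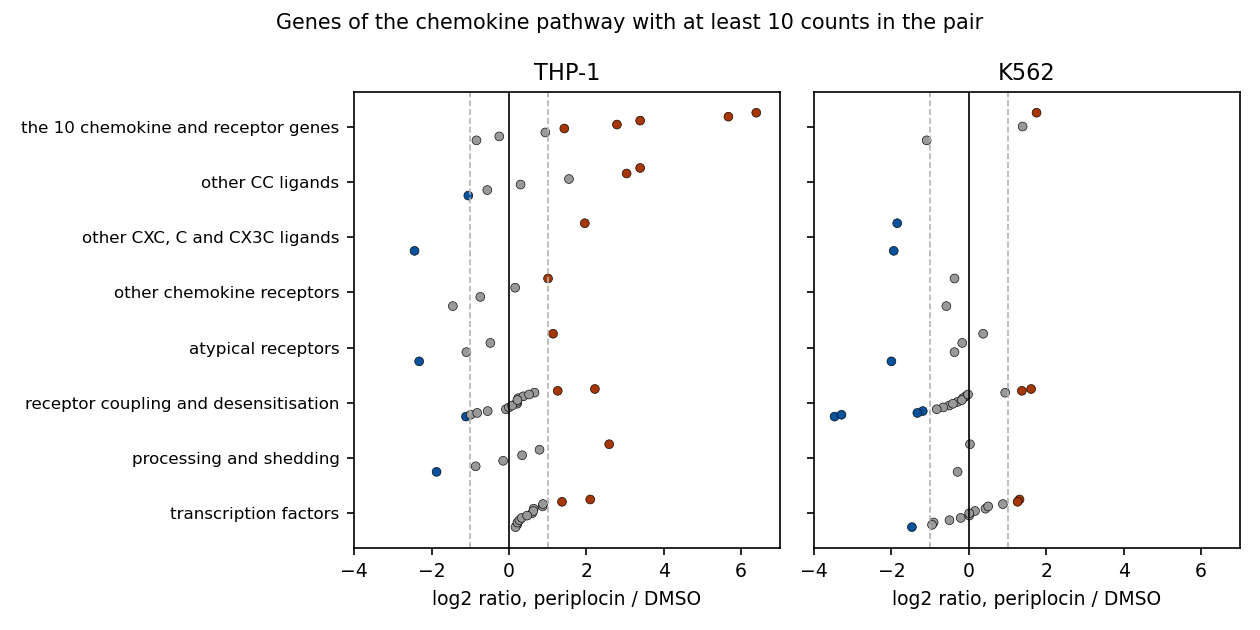
Log2 ratio of the periplocin to the DMSO library for genes of each list with at least 10 counts in the pair, in THP-1 (left) and K562 (right), each point 1 gene, red-brown for past 2-fold higher, blue for lower and grey for neither. Dashed lines mark 2-fold, and ratios set against the floor of 3 counts are drawn at that ratio. The 10 chemokine and receptor genes in the top row reach log2 ratios of 6.39 in THP-1 and 1.75 in K562.

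Of the other CC ligands, 6 of 22 had enough counts in THP-1, 2 being higher and 1 lower, while all 22 were at 3 counts or fewer in K562. The copies CCL3L3 and CCL4L2 were the higher genes. CCL23, a CCR1 ligand made by myeloid cells, was lower, with 133 counts in DMSO and 55 in periplocin (log2 ratio -1.05, standard error 0.23). CCL22, the CCR4 ligand, had 133 and 77 counts, and CCL28, a mucosal ligand of CCR10, had 596 and 629. CCL24, an eotaxin, had 4 and 10. The CC family thus held genes on both sides in the same pair of libraries.

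Of 17 other CXC, C and CX3C ligands, 2 had enough counts in each line. In THP-1, CXCL5, a CXCR2 ligand, went from 0 to 10 counts, a ratio of 3.89 against the floor (exact interval from 2.62). CXCL12, the ligand of CXCR4, went from 19 counts to 0, a ratio of 0.184 against the floor (exact interval up to 0.25). These calls and that of CCL4L2 were lost when a mean of at least 1 CPM was required. In K562, the CXCR2 ligands CXCL2 and CXCL3 were both lower. CXCL2 had 34 counts in DMSO and 9 in periplocin (log2 ratio -1.94, standard error 0.54), and CXCL3 had 60 and 17 (-1.85, 0.40). In THP-1 both had 1 count or none. Over all 46 ligand genes K562 went from 139 to 75 counts, a ratio of 0.530 (0.395 to 0.707), and within them CXCL16 was 5.04% (2.05 to 10.1) in DMSO and 32.0% (21.7 to 43.8) in periplocin.

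Of 15 other receptors, 4 had enough counts in THP-1 and 2 in K562. CX3CR1, the fractalkine receptor of patrolling monocytes, was higher in THP-1, with 1135 and 1954 counts and a ratio of 2.01 (1.87 to 2.17), close to the threshold. CXCR2 had 541 and 518 counts there, CXCR3 had 105 and 54, and CXCR6, the receptor of CXCL16, had 16 and 5 (log2 ratio -1.45, standard error 0.74), none of them past 2-fold by the rule. In K562, CCR10 made up 83.8% (78.5 to 88.3) of receptor counts in DMSO and 77.5% (71.1 to 83.1) in periplocin, with 197 and 155 counts, and CCR7 had 22 and 15.

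Most genes of the list of atypical receptors encode proteins that bind chemokines without G protein signaling and mostly remove or hold them. CCRL2, which presents chemerin, went opposite ways, from 17 to 32 counts in THP-1 (log2 ratio 1.14, standard error 0.43) and from 114 to 29 in K562 (-2.0, 0.30). ACKR2, a scavenger of CC ligands, was lower in THP-1 with 35 and 6 counts (-2.32, 0.64) and had 52 and 47 in K562. ACKR3, which takes up CXCL12, had 15 and 6 counts in THP-1, ACKR4 had 13 and 8 there and 14 and 11 in K562, and PITPNM3 had 19 and 25 counts in K562, none of these past 2-fold.

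Of 18 genes for receptor coupling and desensitisation, 16 had enough counts in each line, with 2 higher and 1 lower in THP-1 and 2 higher and 4 lower in K562. RGS2, a brake on G protein signaling, was higher in both lines, with 84 and 334 counts in THP-1 and 17 and 53 in K562. GRK3, a kinase that desensitises chemokine receptors, was higher in THP-1 with 915 and 1878 counts and lower in K562 with 651 and 290. Among the other GRK genes, GRK2 had 12754 and 5488 counts in THP-1, a ratio of 0.503 (0.487 to 0.519), just short of 2-fold. GRK5 had 60 and 35 counts there and GRK6 had 1044 and 892, neither past 2-fold. GNAI1, an inhibitory G protein subunit, was lower in THP-1 with 293 and 116 counts. In K562, the signal brake RGS16 went from 304 to 28 counts, PLCB2, a phospholipase that acts downstream of these receptors, from 201 to 21, and DOCK2, which couples receptors to the leukocyte cytoskeleton, from 143 to 58, while ARRB2, a beta-arrestin, went from 92 to 242.

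Of 7 proteases that process or shed chemokines, 6 had enough counts in THP-1. MMP2, a gelatinase that can truncate chemokines, was higher with 221 and 1138 counts (log2 ratio 2.59, standard error 0.11). CTSG, the granule protease cathepsin G, was lower with 6226 and 1458 counts (-1.87, 0.04). ADAM10 and ADAM17, sheddases of CXCL16 and CX3CL1, had ratios of 1.26 (1.22 to 1.31) and 1.73 (1.61 to 1.86) in THP-1, and 1.02 and 0.821 in K562. DPP4 had 51 and 24 counts and ELANE 9037 and 6952 in THP-1, neither past 2-fold.

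All 13 genes of the list of transcription factors that act at chemokine promoters, which also holds the inhibitor NFKBIA, had enough counts. JUN, a subunit of AP-1, was higher in both lines, with 151 and 554 counts in THP-1 (log2 ratio 2.10, standard error 0.13) and 1029 and 2505 in K562 (1.26, 0.05). FOS, its partner, was higher in THP-1 only by the rule, with 819 and 1810 counts there and 141 and 124 in K562. In K562, NFKBIA, the inhibitor and target of NF-kB, was higher with 178 and 451 counts, and CEBPB, a myeloid factor, was lower with 1429 and 525. The THP-1 median over the 13 genes was 0.60 and that in K562 was 0.01. These are RNA levels of the factors, not their activity.

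Markers of other cell types summed to less than 3 CPM each in the THP-1 pair. For 5 T cell, 4 B cell, 3 NK cell, 4 fibroblast and 2 epithelial markers, the summed levels in THP-1 DMSO and periplocin were 0.607 and 1.18, 2.07 and 2.31, 0 and 0.177, 0.0506 and 0.650, and 0.101 and 0.177 CPM. CD3D, CD3E, CD3G, COL1A2, DCN and NCR1 were at 0 counts in both THP-1 libraries. Of the 8 THP-1 markers, FCGR1A and ITGAM were past 2-fold higher in THP-1 periplocin, with 1724 and 4006 and 572 and 1063 counts, and IRF8 was lower with 12161 and 4323. The fibroblast marker COL1A1 was also past 2-fold higher there, with 1 and 11 counts, and in K562 7 of the 8 K562 markers, 2 of the 4 fibroblast markers, the epithelial marker CDH1 (0 and 13 counts) and ITGAM (33 and 75) were, while CD33 and FCGR1A were lower there. In K562 DMSO and periplocin the summed levels were 8.91 and 7.83 CPM for T cell, 0.645 and 0.460 for B cell, 0.762 and 0.690 for NK cell, 1.99 and 4.95 for fibroblast and 43.5 and 43.2 for epithelial markers, the last nearly all EPCAM. Their part in the ligand and receptor results was not tested. The share of counts on mitochondrial genes was 5.24% and 3.92% in THP-1 and 5.62% and 2.07% in K562.

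In a joint fit of all 4 libraries, with terms for line and drug, edgeR's quasi-likelihood test called 0 of 13584 genes (0.0%) at a Benjamini-Hochberg adjusted p of 0.05, with 1538 at an unadjusted p under 0.05, and DESeq2 called 126. The only error in this fit is how far the lines' responses differ, with 1 residual degree of freedom. In the edgeR fit, CCL5 had a log2 change of 1.5 (adjusted p = 0.374) and CXCL16 of 2.30 (adjusted p = 0.395). CXCL8, with ratios on opposite sides of 1 in the lines, had 1.25 (adjusted p = 0.745), CCR1 had 1.03 (adjusted p = 0.487), CCR2 had -0.50 (adjusted p = 0.778) and CXCR4 had 0.10 (adjusted p = 0.948), all from edgeR. With DESeq2 the CCR2 change was 0.02 (adjusted p = 0.999), so the joint fits gave it no stable direction. CCL2, CCL3, CCL4 and CXCL10 did not reach 10 counts in 2 libraries and were not fitted.

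The genes with the pattern most like CCL2 over the 4 libraries, out of 12942 genes averaging 1 CPM or more, were CD86, CYTIP and TLR7. The measure was the Euclidean distance of log2(CPM + 0.5) after centring on each gene's mean, and it was 0.37, 0.62 and 0.81. CD86, a costimulatory molecule of antigen-presenting cells, had 8 counts with DMSO and 416 with periplocin in THP-1, with 1 and 0 in K562. CYTIP had 15 and 268 in THP-1, and TLR7, a sensor of single-stranded RNA, had 10 and 193. The genes most like CXCR4 were GOLGA8N (distance 0.26), HOXA13 (0.34) and GOLGA8R (0.34). HOXA13, a homeobox gene, had 1685 and 1221 counts in THP-1 and 0 and 1 in K562. The GOLGA8 genes belong to a family of near-identical copies, so their counts are uncertain.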

How the data were processed

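Poly-A libraries from K562 and THP-1 were sequenced as paired reads of 150 bases. The submitters' processing notes name HISAT2, StringTie 1.3.1 and hg38, without saying which produced the counts, and the counting program and its strand setting are not given in the sources used here. The authors deposited 1 table of expected counts per gene and library, unnormalized, of which 87.4% to 88.3% are exactly whole numbers (tolerance 0). Groups came from the labels. Symbols were taken from a reference list by Ensembl identifier and were present for 20310 genes. Of the genes in the table, 20118 were found in GENCODE release 29, and 0 columns went unused.

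The deposited expected counts were rounded to whole numbers and scaled with TMM over the 4 libraries (edgeR 4.0.16 in R 4.3.3). Ratios within a pair of libraries carry exact Clopper-Pearson intervals (scipy 1.17.1). Where a library had 0 counts, the ratio is set against 3 counts, and the limit of the exact interval is given beside it. Standard errors come from the counts alone. How ambiguous reads were assigned is not stated, and the intervals and standard errors leave out any error from that step. The 4-library fit used edgeR's quasi-likelihood test with Benjamini-Hochberg adjustment, with DESeq2 1.42.0 as the alternative. The ratio step was tested on simulated counts with counting error only, and the fit on simulated counts with little added spread. Both had less spread than the real libraries, so these runs do not show how the steps perform here. Alternatives were other scalings, filters, thresholds and intervals.

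The 10 genes and all lists were chosen with earlier results of these data known. Named genes were all 10 members, every gene with at least 10 counts in some library for lists with up to 8 of these, and, for longer lists, the 5 largest changes per line among genes past 2-fold averaging 1 CPM or more in the pair. GRK2, GRK5 and GRK6 are named beside GRK3 outside this rule. The pathway lists and marker lists were written from general knowledge.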

Additional observations from a re-analysis of the deposited data

Results flagged for a closer look

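A pair of genes, each with 1 library per condition, was past 2-fold in opposite directions in the lines, and that difference was not tested, since there are no replicates. CCRL2 had a log2 ratio of periplocin to DMSO of 1.14 in THP-1 and -2.0 in K562, a difference of 3.14 with a standard error of 0.53 from the counts. GRK3 had 1.26 and -1.19, a difference of 2.45 with a standard error of 0.12.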

How the results depend on the processing

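The labels give no replicate numbers to pair beyond the cell line, which is already a term of the joint fit, and with 1 library per condition no replicate could be left out. In THP-1, 5 of the 10 genes were past 2-fold higher. CCL2, CCL3, CXCL8 and CXCL16 passed under every alternative tried, and CCL5 under all but the 4-fold threshold. With only 1 count required in the pair, CXCL10 also passed, giving 6 higher genes. In K562 the single gene past 2-fold, CXCL16, was lost (0 higher) with a mean of at least 1 CPM, with a 4-fold threshold and with a wider counting interval. With DESeq2 size factors or without mitochondrial genes, 1 gene was lower in K562, CXCL8. Between the DMSO libraries, total counts alone gave 1 lower gene, also CXCL8. At 4-fold, the pathway lists gave 0 higher and 3 lower genes in K562 (4 and 8 at 2-fold) and 5 higher and 2 lower in THP-1 (10 and 5). The 4-library fit called 0 genes, 2 with a filter of at least 1 count in any library, 1 with total counts and 126 with DESeq2, where 73 were higher and 53 lower. CCL5 had an adjusted p of 0.312 in DESeq2. Summing CCL4 with its copy, chosen after seeing the data, put it past 2-fold at a log2 ratio of 3.75. The wider counting interval also took CCRL2 in THP-1 off the calls. In the joint fit the change of CCR2 turned from -0.50 in edgeR to 0.02 in DESeq2, neither past the threshold. No ratio past 2-fold changed sign. Under the 1 CPM filter, the THP-1 pathway lists gave 8 higher and 4 lower genes. Depth limits CCL4, CXCL10 and, in K562, most of the group to counts at or near the floor of 3.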
